A study of Homo sapiens with 6 samples.

Results

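The genes described here are 10 members of the TRAIL and Fas death receptor pathway: the ligand gene TNFSF10, the receptor genes TNFRSF10A, TNFRSF10B, TNFRSF10C, TNFRSF10D and FAS, and the intracellular genes FADD, CASP8, CFLAR and BID. They were chosen by gene symbol, with the fold changes of this same comparison already known, and every probe set annotated to one of them alone was taken. This gave 42 of 54613 probe sets. A further 2 probe sets name TNFRSF10C together with another gene and were left out. Because the choice was made with these results in view, the fold changes, adjusted p-values and counts of the members are a description of the fit across all probe sets and no independent support for it.

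RNA came from HaCaT, an established human skin keratinocyte line that became immortal in culture without an added oncogene. Of the 6 cultures, 3 spent 12 h in a negative-pressure incubator at a gradient of 125 mmHg and 3 spent 12 h at ambient pressure, and each was hybridised to 1 Affymetrix array. The cells are 1 immortalised line in culture, and whether the ambient cultures stood in the same incubator is not given in the sources used here. Values are log2 signals after RMA, so that a difference of 1 is a doubling of the signal, and they are relative to each probe set's own probes.

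TRAIL, the product of TNFSF10, and Fas ligand bind receptors that carry a death domain in the cytoplasm. The bound receptors recruit the adaptor FADD, which brings procaspase-8 molecules together so that they activate each other. The product of CFLAR, c-FLIP, resembles caspase-8 but lacks its activity and competes with it at this complex, and BID, once cut by caspase-8, carries the signal to mitochondria. In skin the pathway is known for removing damaged or infected keratinocytes, and HaCaT cells can respond to its ligands.

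Of 8 keratinocyte markers, 5 had a probe set of their own here and had group means of 8.67 to 12.43 under negative pressure and of 8.04 to 12.57 at ambient pressure. The 14 measured markers of melanocytes, fibroblasts, leukocytes and endothelium had means of 2.36 to 6.74 under negative pressure and of 2.14 to 6.83 at ambient pressure, and among all these markers only the endothelial CDH5 passed an adjusted p of 0.05 (4.01 under negative and 4.81 at ambient pressure, limma adjusted p = 0.0492). The CDH5 call was lost without the replicate 3 arrays (adjusted p = 0.0677) and in each of the 6 fits that left out 1 array (0.0822 to 0.222). With the replicate number as a block, the keratinocyte marker DSG3 passed as well (log2 fold change 0.63, adjusted p = 0.0383, and 0.190 without the block). The other endothelial markers, PECAM1 and VWF, overlapped between groups, and the part of such cells in the results was not tested. The replicate 3 arrays of both groups stood apart on the first principal component, which held 40.4% of the variance (46.8 under negative and 40.0 at ambient pressure, against -24.4 to -14.8 for the other 4 arrays). Pressure separated on the second, with 28.8%. The 3' minus 5' signal of the ACTB control was lowest in replicate 3 of both groups (0.42 under negative and 0.27 at ambient pressure, against 0.64 to 0.85 elsewhere). Values without the replicate 3 arrays are given where they change a call, and fewer cells carrying a transcript and less of it per cell cannot be told apart in these bulk samples.

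The ligand gene TNFSF10 (chromosome 3, 172505508 to 172523430 in GRCh38.p14) rose about 2-fold under negative pressure, and all 3 of its probe sets were higher on every negative pressure array than on any ambient array. The brightest, 202688_at, read 7.82, 8.0 and 8.10 in replicates 1 to 3 under negative pressure, against 6.87, 6.84 and 6.86 at ambient pressure. The SD was 0.14 among the negative pressure arrays and 0.02 among the ambient arrays. The log2 fold change was 1.12 ± 0.12 (SE, n = 3 each), with a 95% interval of 0.85 to 1.38 and a limma adjusted p of 0.0145, the 20th smallest p of all probe sets.

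Probe set 202687_s_at read 6.73, 6.62 and 6.49 under negative pressure, against 5.63, 5.72 and 5.12 at ambient pressure. Its log2 fold change was also 1.12 (± 0.17 SE, adjusted p = 0.0337), so that a dimmer set of probes gave the same size. Probe set 214329_x_at, whose suffix marks probes that can also bind other transcripts, read 6.03, 6.61 and 6.46, against 5.69, 5.36 and 5.28. It stood at 0.92 ± 0.18 (adjusted p = 0.0714), and passed with the replicate number as a block (adjusted p = 0.0289). Here replicate 1 stood out, with a difference of 0.34 between its arrays against 1.25 and 1.18 in replicates 2 and 3.

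On the brightest probe set the size of the TNFSF10 change moved little when arrays were left out, whereas its call depended on them. For 202688_at the log2 fold change ran from 1.05 to 1.2 over the 6 fits that each left out 1 array. The adjusted p stayed under 0.05 without either replicate 3 array and ran up to 0.143 in the other 4 fits. Without both replicate 3 arrays, 202688_at stood at 1.06 (adjusted p = 0.0164) and 202687_s_at at 1.0 (0.0172). The third probe set, 214329_x_at, moved more. It stood at 0.79 without both replicate 3 arrays (adjusted p = 0.128). Over the fits that each left out 1 array it ran from 0.8 to 1.09 and passed in none.

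**Figure D1:**
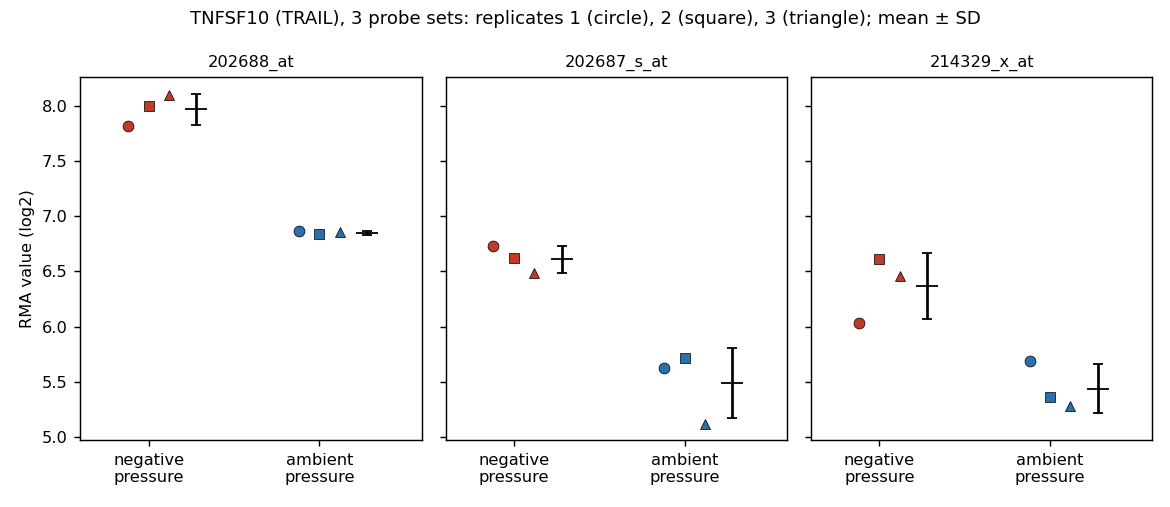
RMA values (log2, vertical axis) of the 3 TNFSF10 probe sets on each array, with the negative pressure arrays at left and the ambient arrays at right of each panel, and the mean ± SD of 3 arrays beside the points. In each panel every negative pressure array lies above every ambient array, for 202688_at at 7.82 to 8.10 against 6.84 to 6.87.

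The 250 bases before the annotated start of TNFSF10 are shown because this is the member whose signal changed, chr3:172523431-172523680 of GRCh38.p14 from RefSeq, minus strand, written 5′ to 3′ as the gene reads. Capitals mark a match, on the opposite strand, to GAAA followed by any 2 bases and GAAA again, the core of the element that interferon regulatory factors bind.
TNFSF10: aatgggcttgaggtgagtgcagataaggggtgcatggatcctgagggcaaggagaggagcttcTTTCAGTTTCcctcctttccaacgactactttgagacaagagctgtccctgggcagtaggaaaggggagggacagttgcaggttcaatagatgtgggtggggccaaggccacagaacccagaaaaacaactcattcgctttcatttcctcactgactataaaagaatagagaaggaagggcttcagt
The match lies 187 to 178 bases before the start. Both strands were searched, and 3.02% of 35116 promoter windows of this length hold the element. Of the members, TNFSF10, FAS, FADD, CASP8, CFLAR and BID were searched, with 17 windows in all, and no window of the other 5 matched. TNFRSF10A, TNFRSF10B, TNFRSF10C and TNFRSF10D were left out of this search. A TATAAA box, which 10.7% of windows hold, stands 31 to 26 bases before the TNFSF10 start and also 139 to 134 bases before 1 of the CASP8 starts. The forkhead core GTAAACA, in 2.98% of windows, was found in none of the 17. Such matches are letters and not measured sites.

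The death domain receptors of TRAIL had no probe set past the threshold. TNFRSF10A, which encodes TRAIL receptor DR4, had 3 probe sets of similar brightness, all with overlapping groups. The brightest, 231775_at, read 6.42, 6.63 and 7.07 under negative pressure, against 7.05, 6.72 and 7.29 at ambient pressure. Replicate 3 was the highest array in both groups. The log2 fold change was -0.31, with an interval of -0.76 to 0.14, and the other probe sets stood at -0.14 and -0.18.

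TNFRSF10B encodes the second TRAIL death receptor, DR5. Its brightest probe set, 209295_at, read 8.49, 8.66 and 8.13 under negative pressure, against 8.62, 8.54 and 7.85 at ambient pressure. Replicate 3 was the lowest array in both groups, and the difference was 0.09 (interval -0.40 to 0.59). The dimmer 209294_x_at read 6.57, 6.41 and 6.37, against 6.21, 6.09 and 6.18, and its groups did not overlap. It stood at 0.29 ± 0.11 (adjusted p = 0.426), and 210405_x_at, also without overlap, at 0.27 (adjusted p = 0.519). The dimmest, 1556645_s_at with a mean of 2.21, was lower on all negative pressure arrays, at -0.22 (adjusted p = 0.606). The probe sets of TNFRSF10B thus differed in sign, and none passed.

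FAS, the receptor of Fas ligand, gave nearly the same signal in both groups on its brightest probe set. For 204780_s_at the values were 7.49, 7.42 and 7.53 under negative pressure, against 7.54, 7.47 and 7.51 at ambient pressure. The difference was -0.02 with an interval of -0.27 to 0.22. Probe set 204781_s_at read 6.77, 6.75 and 6.40, against 6.90, 7.04 and 6.89, so that its groups did not overlap. It stood at -0.31 ± 0.14 (adjusted p = 0.506), and the lowest value was that of replicate 3. The other 3 FAS probe sets overlapped, between -0.15 and 0.03.

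The decoy receptors bind TRAIL without passing on a death signal: that of TNFRSF10C has no cytoplasmic part and that of TNFRSF10D only a truncated death domain. All 6 of their probe sets had overlapping groups, and 5 of them lay below 3.84, the median of all probe set means, so that these values rest on weak signals. TNFRSF10C probe set 234644_x_at, the brightest, read 4.07, 4.21 and 4.23 under negative pressure, against 4.22, 4.30 and 4.13 at ambient pressure (difference -0.05, interval -0.31 to 0.21). The other 3 stood between -0.03 and 0.27. TNFRSF10D probe set 227345_at read 2.87, 2.72 and 2.29, against 3.11, 2.72 and 2.88, a difference of -0.28 that came to -0.12 without the replicate 3 arrays, and 210654_at stood at 0.10. The genes of the 4 TRAIL receptors lie side by side on chromosome 8, between 23020133 and 23225102.

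FADD, the adaptor, has 1 probe set, 202535_at, which was lower on every negative pressure array. It read 8.37, 8.48 and 8.14 under negative pressure, against 8.56, 8.54 and 8.61 at ambient pressure. The difference was -0.24 ± 0.12 (adjusted p = 0.606), and -0.13 without the replicate 3 arrays. Replicate 3 held the lowest negative pressure value.

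CASP8, the initiator caspase, showed overlapping groups on all 3 probe sets. The brightest, 213373_s_at, read 6.68, 6.97 and 6.56 under negative pressure, against 7.04, 6.88 and 6.70 at ambient pressure. The difference was -0.14, with an interval of -0.47 to 0.19. Probe set 207686_s_at stood at -0.06, with an interval of -0.31 to 0.20, and the dim 1553306_at (mean 2.04) at 0.11.

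CFLAR, the inhibitor at the receptor complex, lies on chromosome 2 (201116164 to 201176687) near CASP8 (201233463 to 201287711), and 14 probe sets read it. Its 2 brightest probe sets, with means of 6.42 and 6.38 over 6 arrays, were lower on every negative pressure array than on any ambient array. Probe set 209939_x_at read 5.90, 6.01 and 6.27 under negative pressure, against 6.62, 6.69 and 6.81 at ambient pressure. Its log2 fold change was -0.65 ± 0.13 (SE), with an interval of -0.95 to -0.35 and an adjusted p of 0.0861. Probe set 210563_x_at read 6.14, 6.28 and 6.02, against 6.58, 6.79 and 6.69. It stood at -0.54 ± 0.12, with an interval of -0.81 to -0.26 and an adjusted p of 0.123.

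Neither CFLAR probe set passed the threshold, and both passed with the replicate number as a block, at adjusted p of 0.0210 for 209939_x_at and 0.0451 for 210563_x_at. Arrays of the same replicate number are not known to be pairs. Between them the differences for numbers 1, 2 and 3 were -0.73, -0.68 and -0.55 for the first and -0.44, -0.50 and -0.67 for the second. Without the replicate 3 arrays, 209939_x_at stood at -0.70 (adjusted p = 0.0380) and 210563_x_at at -0.47 (adjusted p = 0.142).

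The other 12 CFLAR probe sets were dimmer, with means of 1.71 to 4.91, and did not all lie on the same side. Of the 14, 12 were below 0 and 2 above, with a median of -0.11. Among the 8 with a mean above the median of all probe sets, 7 were below 0 and the median was -0.34, and among the 6 dimmer ones it was -0.07. Probe set 209508_x_at read 4.19, 3.97 and 4.44 under negative pressure, against 4.51, 4.57 and 4.64 at ambient pressure (-0.37, adjusted p = 0.398). Probe set 211316_x_at was split by replicate: 3.60, 4.0 and 4.90 under negative pressure, against 4.51, 4.61 and 4.32 at ambient pressure. Its difference was -0.31 over all arrays and -0.76 without the replicate 3 arrays (adjusted p = 0.0682). Most CFLAR probe sets carry the x suffix of probes shared with other transcripts, and which CFLAR transcripts each one reads was not analysed here.

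**Figure D2:**
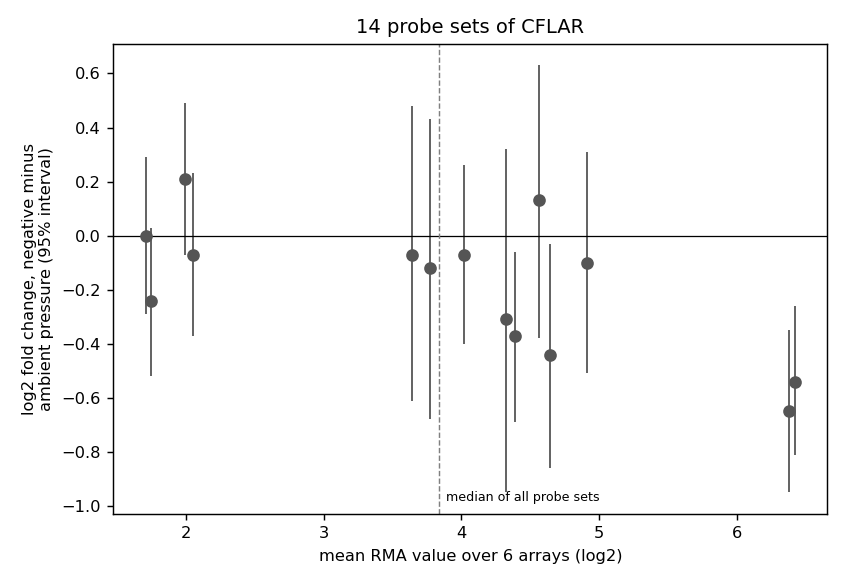
Log2 fold change of negative minus ambient pressure with its 95% interval (vertical axis) against the mean RMA value over 6 arrays (log2, horizontal axis) for the 14 CFLAR probe sets, with a dashed line at the median of all probe sets, 3.84. The 2 brightest probe sets have the lowest values, -0.65 and -0.54, and the dimmer ones lie between -0.44 and 0.21.

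BID, the link to mitochondria, had 3 bright probe sets, all above 0, and none passed. Probe set 204493_at was the one without overlap: it read 8.86, 8.88 and 8.84 under negative pressure, against 8.48, 8.40 and 8.30 at ambient pressure. Its log2 fold change was 0.47 ± 0.11 (SE), with an interval of 0.22 to 0.72 and an adjusted p of 0.135. Probe set 227143_s_at read 8.72, 8.43 and 8.84, against 8.45, 8.39 and 8.36, and stood at 0.27 (adjusted p = 0.591). The brightest, 211725_s_at, read 10.13, 9.91 and 9.66, against 9.93, 9.72 and 9.73, and stood at 0.11 with an interval of -0.22 to 0.43. On that probe set the negative pressure array of replicate 3 was the lowest of all 6.

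**Figure D3:**
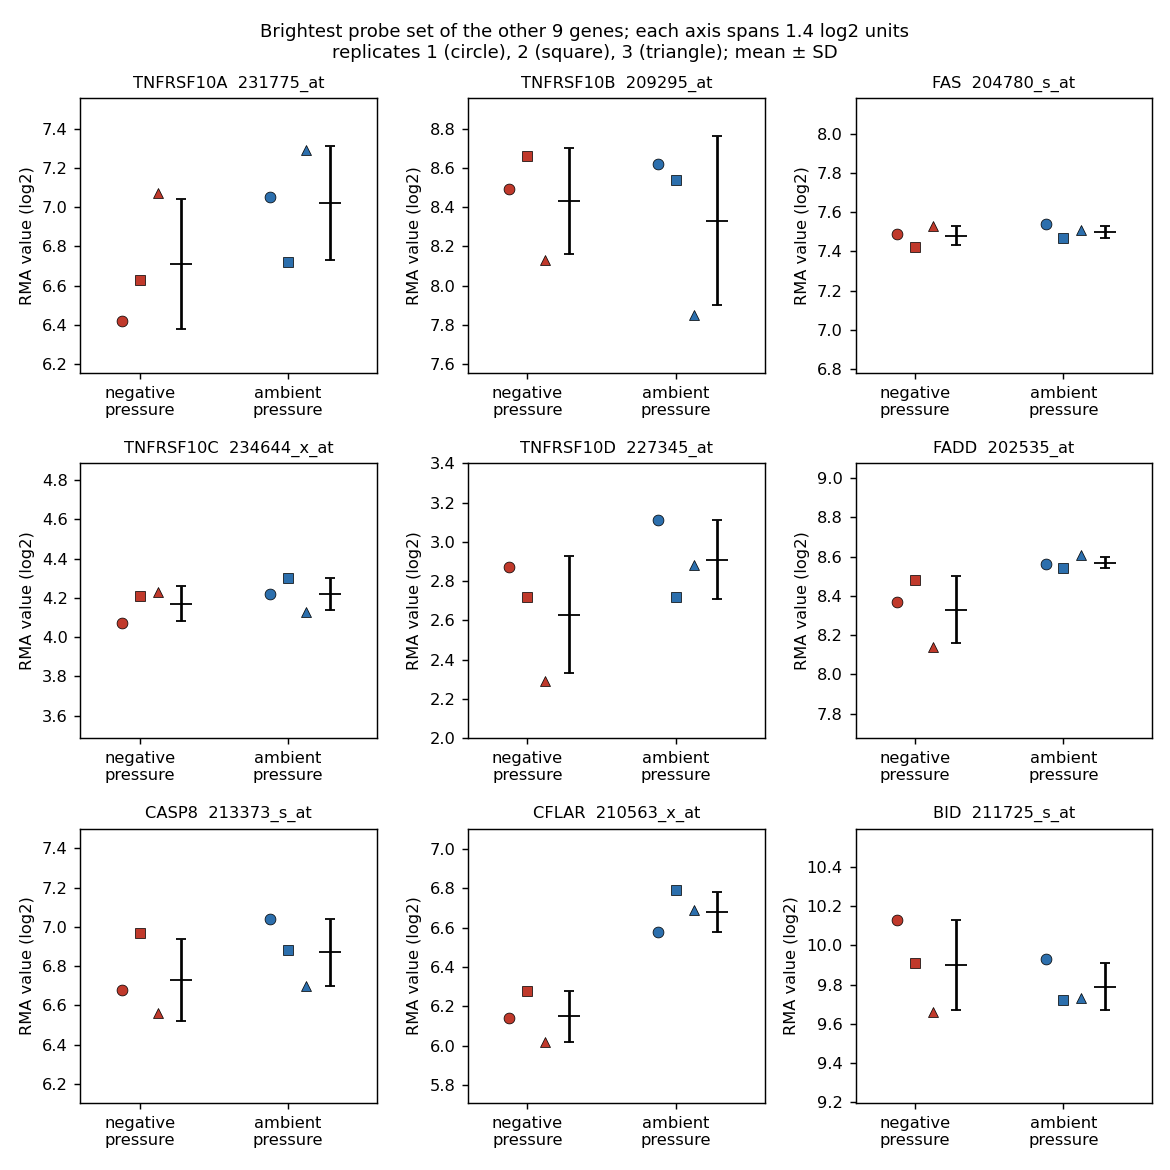
RMA values (log2, vertical axes) of the brightest probe set of each of the 9 members other than TNFSF10, with negative pressure arrays at left and ambient arrays at right of each panel, and the mean ± SD of 3 arrays beside the points. The groups are apart for CFLAR (6.02 to 6.28 against 6.58 to 6.79) and FADD (8.14 to 8.48 against 8.54 to 8.61) and overlap for the other 7.

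Over the 42 probe sets, 2 were called at an adjusted p under 0.05, both of TNFSF10 and both higher. Of all probe sets 0.48% were called, 0.276% higher and 0.203% lower. With the replicate number as a block 5 member probe sets were called, the 3 of TNFSF10 higher and 2 of CFLAR lower, against 2.27% of all probe sets. The groups did not overlap for 6 member probe sets that were higher and 7 that were lower, where the shares of all probe sets were 8.44% and 6.56%. The 6 higher ones belonged to TNFSF10 (3), TNFRSF10B (2) and BID (1), and the 7 lower ones to CFLAR (4), TNFRSF10B, FAS and FADD (1 each). The median log2 fold change of the 42 was -0.05, with 17 above 0 and 25 below, and that of all probe sets was 0.006. The CFLAR probe sets make up 14 of the 42 and share their target, so that these counts weigh CFLAR most.

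**Figure D4:**
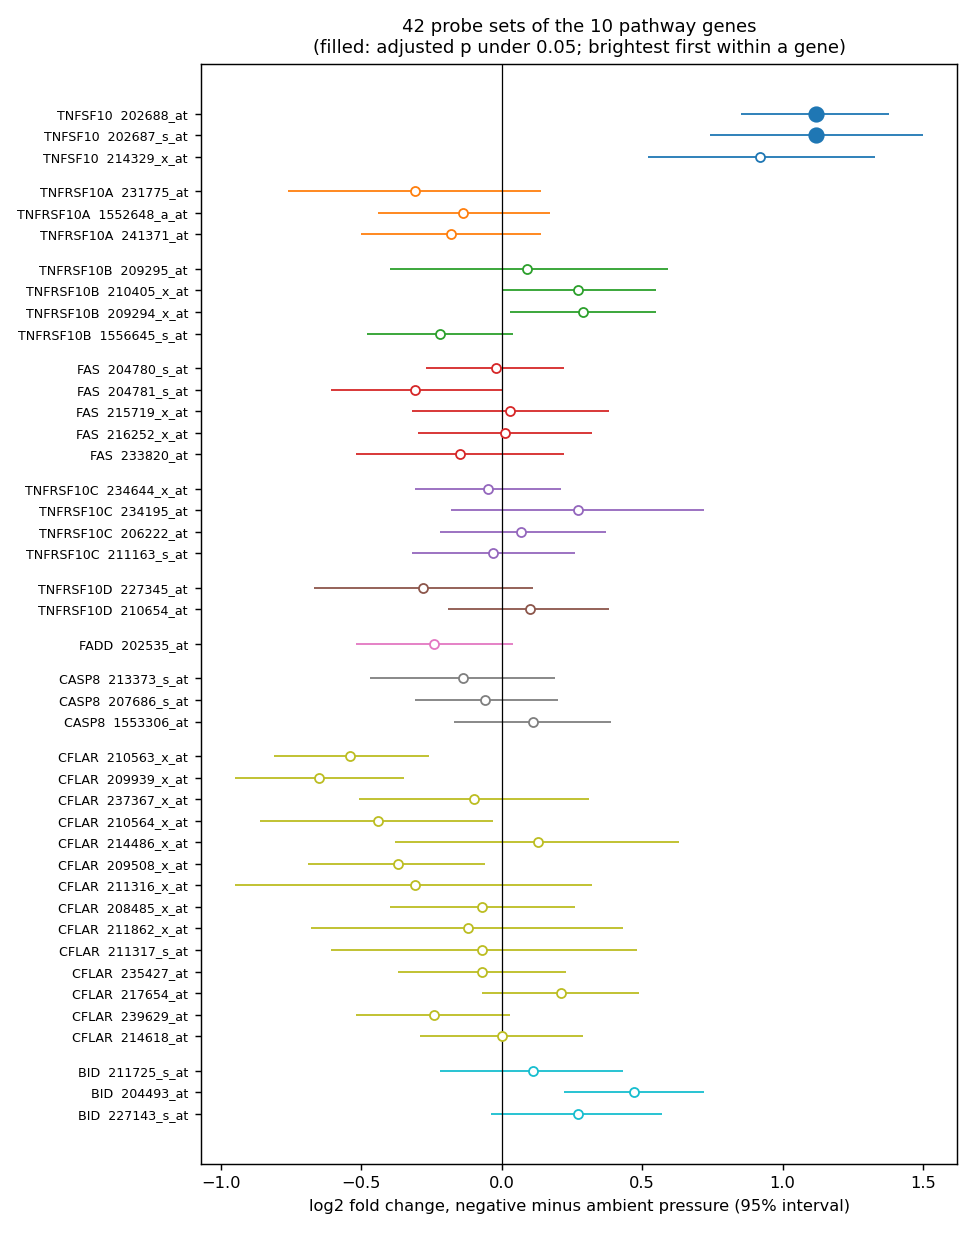
Log2 fold change of negative minus ambient pressure (horizontal axis) with its 95% interval for the 42 probe sets, grouped by gene down the page, with filled points for an adjusted p under 0.05. The 3 TNFSF10 probe sets lie at 0.92 to 1.12, and all others lie between -0.65 and 0.47.

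Around these members, 54 further genes of the pathway were listed, of which 45 had a probe set of their own here and the other 9 were not analysed here. Each was read by its brightest probe set. Only IRF1, listed as a transcription factor that can act on TNFSF10 and CASP8, passed the threshold, 1 of 45, while 127 of all 19775 genes (0.642%) did so by their brightest probe set. The median of the 45 was 0.13, with 32 above 0. Of all probe sets naming 1 gene 52.2% were above 0, and the median of all probe sets was 0.006. The groups did not overlap for 13 of the 45 that were higher and 4 that were lower. The shares of all probe sets, not only the brightest of each gene, were 8.44% and 6.56%. The 45 were taken from the textbook pathway with earlier results of these data known, so these counts are a description and no independent support.

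IRF1 read 8.19, 8.11 and 8.74 under negative pressure, against 7.30, 7.40 and 7.29 at ambient pressure. Its log2 fold change was 1.02 ± 0.17 (SE, adjusted p = 0.0460), and its second probe set, 238725_at, stood at 0.77 (adjusted p = 0.0751, and 0.0225 with the block). The IRF1 call was lost with quantile normalization repeated (adjusted p = 0.0742), with cyclic loess (0.0683) and with trend and robust variance (0.0511), at 0.99 to 1.02. It was also lost without any 1 array other than negative pressure replicate 3 (adjusted p from 0.111 to 0.209). DDIT3, the stress factor CHOP, which can raise TNFRSF10B, had a log2 fold change of 0.58 ± 0.14 (adjusted p = 0.133, and 0.0437 with the block). It read 7.55, 7.5 and 7.91, against 7.01, 7.10 and 7.09, with no overlap. The remaining measured transcription factors stood at 0.26 for MYC, 0.14 for FOXO1, 0.13 for FOXO3, 0.12 for NFKB1 and -0.02 for RELA.

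With the replicate number as a block, 6 of the 45 passed, all higher, against 2.56% of all genes. Besides IRF1 and DDIT3 these were NGFR, TNFSF15, CASP10 and CYLD, of which the last 2 were singled out after their values were seen. NGFR, the neurotrophin receptor with a death domain, read 5.62, 5.35 and 6.17 under negative pressure, against 4.64, 4.48 and 5.20 at ambient pressure. Its difference was 0.94 ± 0.24 (adjusted p = 0.166, block 0.00551), and between arrays of the same replicate number it was 0.99, 0.88 and 0.97. Without the replicate 3 arrays NGFR passed (0.93, adjusted p = 0.0300). TNFSF15, the ligand of death receptor DR3, stood at 0.65 (adjusted p = 0.222, block 0.0219). CASP10, the initiator caspase closest to CASP8, stood at 0.54 (adjusted p = 0.144, block 0.0418) and its other 3 probe sets between -0.11 and 0.25. CYLD, a deubiquitinase of receptor complexes, stood at 0.55 (adjusted p = 0.107, block 0.0459) and its other 6 probe sets between -0.13 and 0.34.

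The largest differences below 0 without overlap were those of BIRC5, TNFRSF12A and FAF1, and none passed. BIRC5, the inhibitor of apoptosis protein survivin, stood at -0.46 (8.75 ± 0.17 under negative and 9.20 ± 0.13 at ambient pressure, SD, adjusted p = 0.227). Its other probe sets differed in sign. Without overlap, 202094_at was higher at 0.34 and 1555826_at lower at -0.36, and 210334_x_at stood at -0.14 with overlapping groups. TNFRSF12A, the receptor of TWEAK, stood at -0.27, and at -0.11 without the replicate 3 arrays. Between arrays of the same replicate number, 1 to 3, its differences were -0.18, -0.04 and -0.61. The Fas-binding factor gene FAF1 stood at -0.14. The 6 measured genes of caspases and mitochondrial death factors downstream, CASP6, CASP9, APAF1, CYCS, BAX and BAK1, lay between -0.29 and 0.20 by their brightest probe sets, and none of the 6 passed (smallest limma adjusted p = 0.629). A dimmer probe set of CYCS, the cytochrome c gene, 229415_at, read 4.60, 4.75 and 4.20 under negative pressure, against 5.48, 5.24 and 4.92 at ambient pressure. It stood at -0.70 (interval -1.12 to -0.28, adjusted p = 0.186, and 0.0217 with the block), while the brightest CYCS probe set stood at -0.01. This probe set was singled out after its values were seen. TNFRSF11B, a soluble decoy of TRAIL also known as osteoprotegerin, is named here outside the naming rule. By its brightest probe set, with overlapping groups, it stood at 0.33 (adjusted p = 0.700), and at 0.09 without negative pressure replicate 3. Its other probe set, 204932_at, stood at 0.42 with no overlap (adjusted p = 0.305).

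**Figure D5:**
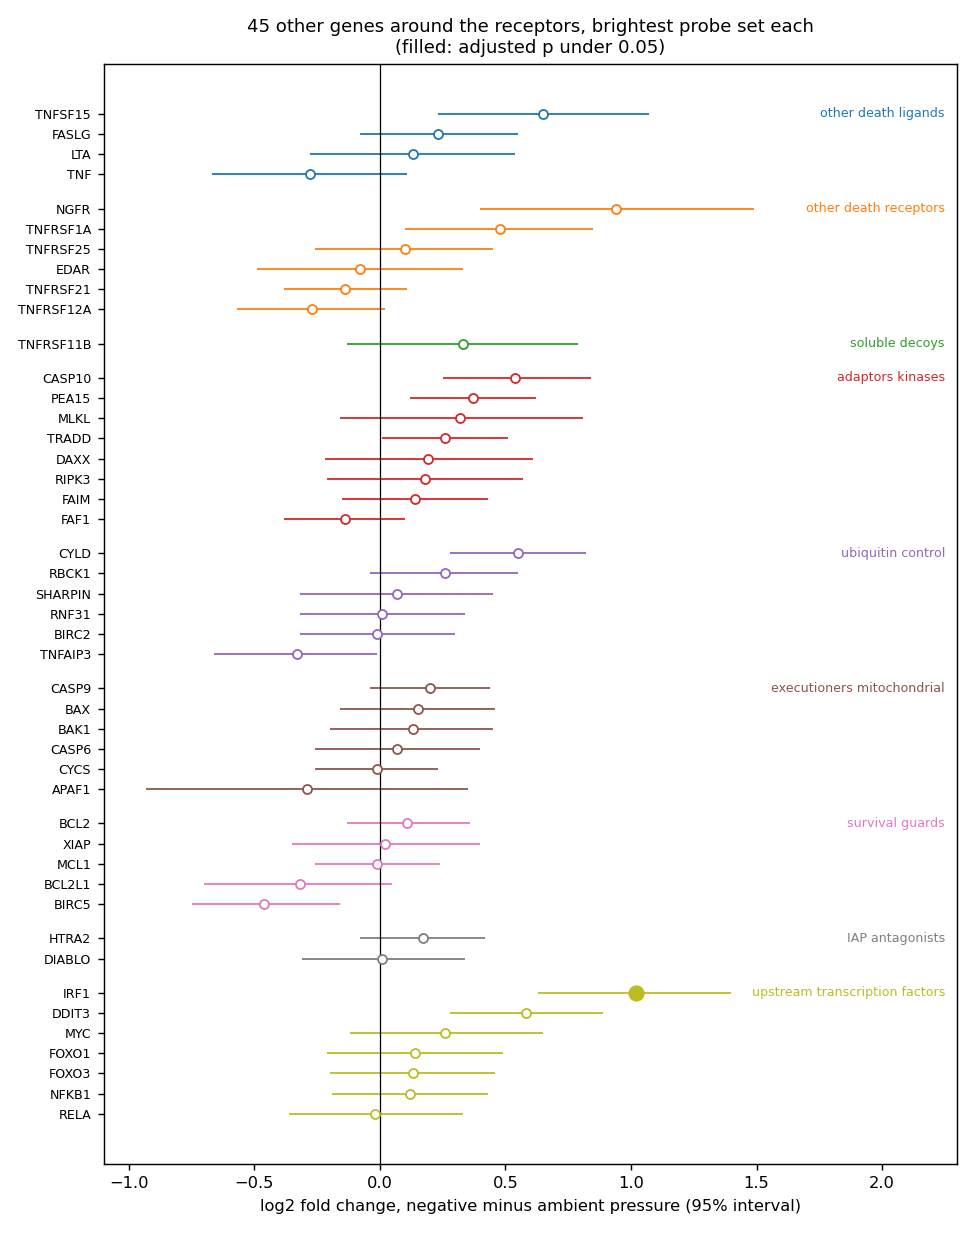
Log2 fold change of negative minus ambient pressure (horizontal axis) with its 95% interval for 45 other genes around the receptors, each by its brightest probe set and grouped by role down the page, with a filled point for an adjusted p under 0.05. IRF1 at 1.02 is the filled point, NGFR follows at 0.94, and BIRC5 is the lowest at -0.46.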

How the data were processed

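RNA of 6 HaCaT cultures was measured on Affymetrix arrays of 54675 probe sets. The authors deposited log2 values. Per the submitters' processing notes, RMA was run with Expression Console 1.2. RMA corrects background, normalizes between arrays and summarises probes per probe set, so that small differences at low signal are compressed. Values lay between 0.89 and 13.4. The arrays' number limits precision. Groups and replicate numbers were read from titles that call the cultures biological replicates.

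Names came from the platform annotation, in which 41091 probe sets name 1 gene, 1801 several and 11721 none, beside 62 controls that were left out; a probe set with several names was given none. The gene identifiers of the 10 members matched RefSeq. Negative and ambient pressure were compared in limma 3.58.1 (lmFit, then eBayes; R 4.3.3) over 54613 probe sets, with Benjamini-Hochberg adjustment over all, a threshold of 0.05 and no filter on low values. Differences are those of negative over ambient pressure. The fit was tested on simulated data. Members, lists, motifs and alternatives were chosen with earlier results of these data known. The naming rule took all members, other pathway genes past the threshold, the 3 largest rises and falls among those without overlap and above the median signal, and every listed transcription factor.

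Replicate numbers 1 to 3 were checked for pairing. Deviations from the group means correlated at 0.22, 0.23 and 0.47 between arrays of number 1, 2 and 3, each above 0.1. However, ambient replicate 1 was closest to negative pressure replicate 2 (0.36), and ambient replicate 2 correlated with negative pressure replicate 1 at 0.15. Deviations within a group cancel out, and replicate 3 stood apart in both groups. This favours positive values for any match of numbers 1 and 2. The check therefore cannot decide whether numbers 1 and 2 are pairs, and no label states a shared day. The main fit held pressure alone, without pairing. The replicate number was a block only in an alternative fit. Blocked values stand where they change a call.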

Additional observations from a re-analysis of the deposited data

How the results depend on the processing

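Of all 54613 probe sets 262 were called, 1242 with the replicate block and 1516 with array weights. There were 600 without both replicate 3 arrays and 625 at an adjusted p under 0.1. The count ran from 1 to 235 when 1 array was left out. Of the 42 member probe sets 2 were called, 5 with the replicate block and 6 with array weights. There were 3 without both replicate 3 arrays, 4 at an adjusted p under 0.1 and 0 to 2 when 1 array was left out. The count was 0 without ambient replicate 1 or 2 or negative pressure replicate 1 or 2. In those fits 7 to 9 had an unadjusted p under 0.05 in limma. The sixth with array weights was 204493_at of BID. With 1 probe set per gene, or the mean of a gene's probe sets, 1 of 10 genes was called, TNFSF10 each time. Of all 19775 genes, 182 and 185 were called in these fits. Of the 45 other genes 1 was called, 6 with the replicate block, 5 with array weights, 2 without both replicate 3 arrays, and 0 to 1 when 1 array was left out (8 to 12 at an unadjusted p under 0.05 where it was 0). None was called by limma with quantile normalization repeated, cyclic loess (11 each at an unadjusted p under 0.05) or trend and robust variance (10). In the main fit an unadjusted limma p of 0.0497 ranked 5366 among 54613 probe sets. The share of all probe sets under 0.05 is not given for the other fits, so these unadjusted counts cannot show an excess. The cause of these moves was not tested. The median of the members stayed between -0.10 and -0.02. Of the values of the 10 members and IRF1 by their brightest probe set, 161 kept their side of the threshold, 12 lost it (4 of TNFSF10, 8 of IRF1) and 2 gained it (both of CFLAR), and none of the called ones turned in sign. The block changed no other call of a gene named here than those given above.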
